A study of Mus musculus with 6 samples.

Results

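The genes described here encode the enzymes that make, use and recycle glutathione, the thioredoxins and their relatives, the peroxiredoxins, the superoxide dismutases and catalase. They were taken by name from a deposited table of mouse transcript levels: the glutathione transferases of the alpha, kappa, mu, omega, pi, theta and zeta classes, the microsomal transferases, the glutathione peroxidases, the peroxiredoxins, every name starting with Txn or Glrx, Sod1 to Sod3, Cat, Gclc, Gclm, Gsr and Gss. The rule found 68 genes of 31032 distinct names. Txnl4a had 2 rows, of which the row with the higher mean was used. The libraries came from parvalbumin-positive neurons in the lumbar 4 dorsal root ganglion of C57BL/6 mice aged 21 days (P21). Parvalbumin marks mainly proprioceptors in this ganglion, the sensory neurons that report muscle length and tension. The labels give 3 libraries as wild-type and 3 as a Dicer knockout driven by parvalbumin-Cre; Dicer cleaves microRNA precursors, and its deletion follows the activity of the parvalbumin gene. Separate animals, pooling, and any Cre or floxed allele in the wild-type animals are not stated, so a p-value reflects only how far these samples scatter, which may be technical.

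Glutathione is a tripeptide that cells build in a pair of steps, with glutamate-cysteine ligase (Gclc and its modifier Gclm) first and glutathione synthetase (Gss) second, and that glutathione reductase (Gsr) returns to its reduced form with NADPH. Transferases attach it to electrophiles, and peroxidases spend it on hydrogen peroxide and lipid peroxides. Thioredoxin, kept reduced by thioredoxin reductase, feeds electrons to peroxiredoxins, while superoxide dismutases turn superoxide into the peroxide that catalase and these enzymes remove. Large sensory neurons with long axons and steady firing are known for high mitochondrial activity, a main source of superoxide. The transcription factor Nrf2 (gene Nfe2l2), held back by Keap1, is the best known activator of many of these genes.

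Levels are given as TPM (a length-scaled share of each library's transcripts), which allows genes to be compared with each other within a library. Differences are knockout minus wild type on log2(TPM + 1), a scale that understates changes of rare transcripts. A gene was called when the limma test, adjusted by Benjamini and Hochberg over all 13787 rows averaging 1 TPM or more, gave an adjusted p below 0.05. In bulk libraries such as these, fewer cells of a type and less RNA per cell cannot be told apart.

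Libraries had 13237 to 13960 rows at 1 TPM or more. Dicer1 was at 36.7, 26.0 and 48.7 TPM in wild-type and 24.0, 20.8 and 21.8 TPM in knockout libraries (log2 difference -0.68, adjusted p = 0.104). Exons were not resolved, so this does not measure how much of the gene was deleted. The 8 pan-neuronal markers summed to 25030 to 26138 TPM in wild-type and 22625 to 23644 TPM in knockout libraries. Snap25, at 12862 ± 1481 and 11049 ± 398 TPM, weighed most in these sums and was not called. Rbfox3 was called higher (94.9 ± 8.10 and 131 ± 4.45 TPM, limma adjusted p = 0.0496), none was called lower, and 3 of the 8 had higher knockout means. Of the 7 proprioceptor markers in the table, Pvalb and Runx3 among them, 6 were called lower and their sums, 1506 to 1636 and 627 to 852 TPM, did not overlap. Satellite glia markers were present in every library, with 3 of 12 called lower (Fabp7, Cadm1 and Gja1) and sums of 1894 to 3122 and 1675 to 2205 TPM. Dbi and Glul were the 2 with higher knockout means, and neither was called. Glul was higher in every knockout library (149 ± 48.4 and 226 ± 16.8 TPM, limma adjusted p = 0.105). Among 6 Schwann cell markers, Pmp22 was called higher (480 ± 39.4 and 1223 ± 178 TPM, SD, n = 3 each) while Mbp was at 14.1 ± 3.58 and 6.77 ± 1.13 TPM; the list summed to 449 to 529 and 1039 to 1391 TPM. The part of Schwann cell RNA in other results was not tested. The 6 macrophage markers summed to at most 8.76 TPM, with C1qa at 0 in all libraries. The 6 endothelial and mural markers summed to 12.65 to 20.25 TPM in wild-type and 19.42 to 29.61 TPM in knockout libraries. Most of this was Egfl7, at 12.01 to 22.54 TPM, while Cldn5 and Flt1 were at 0 throughout. The 6 fibroblast markers summed to 22.87 to 46.02 and 28.27 to 43.98 TPM. None of these markers was called. Replicate 3 of each group was the library with Ddx3y (33.3 and 32.7 TPM) and without Xist, so it came from another sex than replicates 1 and 2. Wild-type replicate 2 was the only library listed at 0 for 370 of the tested rows, against 5 to 73 such rows for each of the other libraries, and for 3 of the genes described here (Gpx2, Gstt1 and Gpx7).

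A few of the antioxidant genes changed, in both directions. Gsto1, Gstp1 and Gstm6, all cytosolic glutathione transferases, and Txn1, the cytosolic thioredoxin, rose in knockout libraries. Sod2, the manganese superoxide dismutase of mitochondria, and Glrx5, a mitochondrial glutaredoxin of iron-sulfur cluster assembly, fell. These were 4 rises and 2 falls among 56 tested genes (10.7%), where 5.03% of all rows tested were called, 1.86% as rises and 3.17% as falls. In all, 19 of the 56 (33.9%) had groups that did not overlap, 12 higher and 7 lower. Of all rows, 28.9% had such groups, 11.8% higher and 17.1% lower. At an unadjusted limma p below 0.05, 14 of the 56 were higher and 7 lower, against 9.77% and 14.1% of all rows. Each unadjusted count of the main fit given below for a class or list is to be read beside these shares of all rows. Knockout levels were on average the higher ones for 33 of the 56 genes (58.9%) and for 45.0% of all rows. The median log2 difference was 0.10 for the 56 genes and -0.05 for all rows. Scaling moved this balance. The split over all rows was 256 rises and 437 falls, or 36.9% rises, and became 49.3% rises with median-of-ratios rescaling, under which 3 of the 56 genes rose (Gsto1, Gstp1 and Gstm6) and 1 fell (Sod2).

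**Figure D1:**
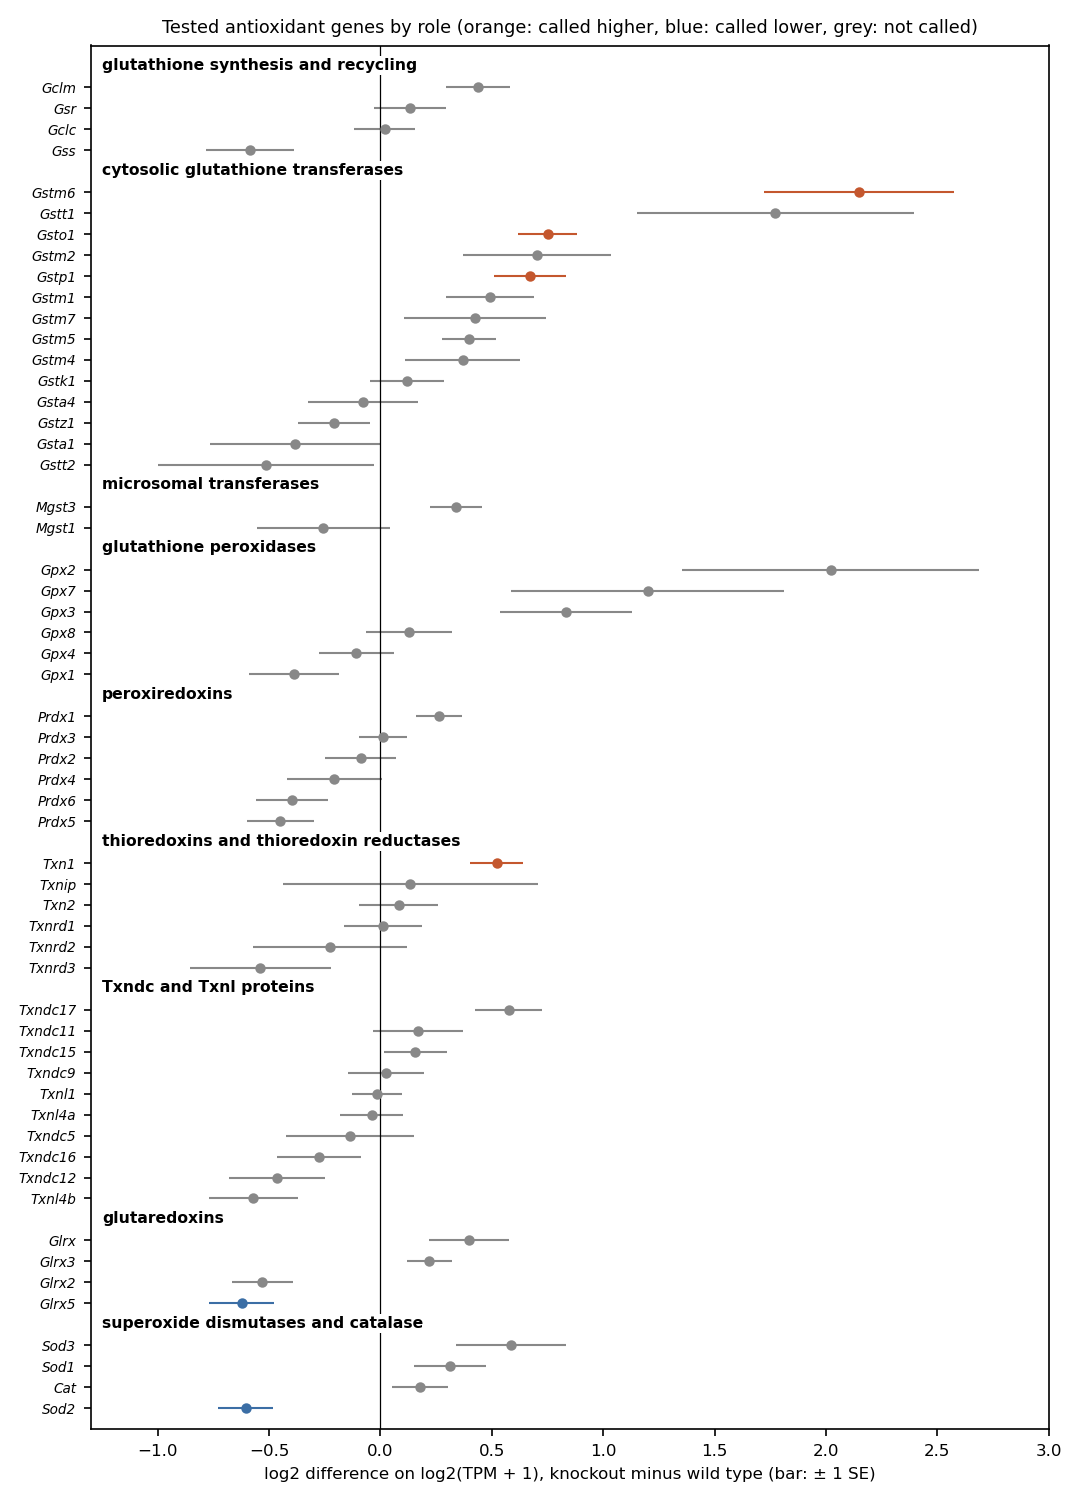
Difference in log2(TPM + 1) between knockout and wild-type libraries for the 56 tested genes grouped by role, with points for the fitted difference and bars of 1 SE (3 libraries per group). Gstm6, Gsto1, Gstp1 and Txn1 lie to the right in orange, and Sod2 and Glrx5 lie to the left in blue, at -0.60 and -0.62.

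The remaining 12 genes had means below 1 TPM and were not tested. Gstt4, Gpx5, Gpx6 and Txndc8 were listed at 0 in every library. Gstp2, Gsto2, Gsta2, Gsta3, Gstm3, Gstt3, Mgst2 and Txndc2 reached at most 3.58 TPM in any library (Mgst2 in knockout replicate 1). Of these, Gstt3 had groups that did not overlap, at 0.21, 0.83 and 0.39 TPM in wild-type and 0.12, 0 and 0 TPM in knockout libraries, a range too low to read. The 68 genes together held 8770 to 9572 TPM of a wild-type and 9893 to 10632 TPM of a knockout library, or 0.877% to 1.06% of the total.

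Transcripts for glutathione synthesis were present at moderate levels, and none of the 4 was called by limma (unadjusted p below 0.05: 1 higher, 1 lower). Gclm, the modifier subunit that makes the ligase more efficient, was at 122.6, 102 and 111 TPM in wild-type and 171, 163 and 125 TPM in knockout libraries. Every knockout value lay above every wild-type value, and the log2 difference was 0.44 (SE 0.14, adjusted p = 0.108). Gclc, the catalytic subunit, was at 51.0 ± 5.11 and 51.7 ± 4.66 TPM (SD, n = 3 each; log2 difference 0.02). Gss, the enzyme of the second step, lay lower in all 3 knockout libraries, at 14.3, 15.6 and 14.2 TPM against 17.9, 29.0 and 21.9 TPM. Its log2 difference of -0.59 had an adjusted p of 0.119, and Gss overlaps the gene Acss2 and a pair of antisense transcripts on the opposite strand, whose reads cannot be told apart from its own without strand. Gsr, which regenerates reduced glutathione, was at 58.8 ± 8.97 and 64.4 ± 9.39 TPM with overlapping groups.

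The cytosolic glutathione transferases had 3 rises and 0 falls among 14 tested genes (21.4%). At an unadjusted limma p below 0.05, 6 were higher and 0 lower, against 9.77% and 14.1% of all rows. Gsto1, the omega-class transferase that reduces dehydroascorbate, was at 73.5, 68.2 and 90.5 TPM in wild-type and 131, 122 and 137 TPM in knockout libraries. The knockout values were 1.68 times the wild-type values on average and lay well clear of them (log2 difference 0.75, SE 0.13, adjusted p = 0.0175; chromosome 19, 47854970 to 47864790, GRCm38). The call ended without wild-type replicate 2 (adjusted p = 0.0513) or without knockout replicate 1 (0.076), and its adjusted p lay between 0.00864 and 0.0792 across 18 alternatives. Gsto1 lies inside Cfap43 on the opposite strand; that gene, listed under its older symbol Wdr96, was at 0 to 1.81 TPM in these libraries. No 50-base word of the longest Gsto1 transcript occurs in a transcript of another gene. Gsto1 stayed called when the mean satellite glia level was a covariate (log2 difference 0.93, adjusted p = 0.0303). That covariate averages the 12 glia markers, whose median log2 difference was -0.70, so it partly overlaps with genotype. A call kept or lost with it therefore cannot separate glia from genotype, here or below.

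Gstp1, the pi-class transferase, was at 39.2, 48.0 and 41.6 TPM in wild-type and 55.9, 80.2 and 72.3 TPM in knockout libraries (chromosome 19, 4035407 to 4037985). The groups did not overlap, and the log2 difference of 0.67 (SE 0.16) stood at the edge of the threshold, with an adjusted p of 0.0499. Leaving out any single library ended the call, with adjusted p from 0.0548 (knockout replicate 1) to 0.159 (knockout replicate 2), and across all 18 alternatives it lay between 0.0349 and 0.214. Its near copy Gstp2 shares 62.3% of the 50-base words of Gstp1, so reads may be divided between them. Summed, both genes held 42.9 ± 4.56 TPM in wild-type and 70.6 ± 12.3 TPM in knockout libraries (SD, n = 3 each).

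Gstm6 made the largest move on the log2 scale among the called genes. It was at 1.88, 2.75 and 0.64 TPM in wild-type and 17.5, 10.8 and 6.06 TPM in knockout libraries, so the groups lay apart, with a wide spread among the knockout libraries. The log2 difference was 2.15 (SE 0.43, adjusted p = 0.0266), from means of 1.76 ± 1.06 and 11.5 ± 5.75 TPM (SD, n = 3 each). The call ended without wild-type replicate 3 (0.0707), knockout replicate 1 (0.109) or knockout replicate 2 (0.0921), with 0.0139 and 0.12 as the extremes across the alternatives. With that glia covariate the difference was 1.55 (0.12). The size depends on the pseudocount: 5 in place of 1 gave a log2 difference of 1.24 (0.0282).

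Gstm6 is 1 of 7 mu-class genes (Gstm1 to Gstm7) that lie within 149 kb of chromosome 3 (107895821 to 108044894). The other tested mu genes also had higher knockout means, and none passed the test. Gstm5, the most abundant transferase of the cytosolic class, was at 203, 196 and 159 TPM in wild-type and 254, 242 and 237 TPM in knockout libraries, without overlap (log2 difference 0.40, adjusted p = 0.0886). Gstm1, Gstm2, Gstm4 and Gstm7 had differences of 0.49, 0.70, 0.37 and 0.42 with overlapping groups and adjusted p from 0.176 to 0.458. Copies in this cluster resemble each other to different degrees: 11.5% of the 50-base words of Gstm6 occur in transcripts of other genes, against 23.1% for Gstm1, 9.36% for Gstm2 and 0 for Gstm4, Gstm5 and Gstm7.

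None of the theta, alpha, kappa and zeta transferases was called. Gstt1 was at 6.09, 0 and 3.57 TPM in wild-type and 12.4, 9.48 and 8.22 TPM in knockout libraries, without overlap. Its log2 difference of 1.77 (SE 0.62, adjusted p = 0.128) rests partly on the 0 listed in wild-type replicate 2 and was 0.94 without that library. Gstz1, the zeta enzyme of tyrosine breakdown, Gsta4, which conjugates lipid aldehydes, and Gstk1, of mitochondria and peroxisomes, held 18.4 to 39.6 TPM in all libraries, with differences of -0.21, -0.08 and 0.12. Gsta1 and Gstt2 lay near 1 TPM, at 0.33 to 3.44 TPM, with overlapping groups.

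Of the microsomal transferases, membrane proteins that also act on lipid hydroperoxides, Mgst3 dominated and Mgst1 was low. Mgst3 was at 638, 517 and 501 TPM in wild-type and 717, 664 and 704 TPM in knockout libraries. All knockout values were the higher ones (log2 difference 0.34, SE 0.12, adjusted p = 0.126), and the test was passed without wild-type replicate 1 (0.45, adjusted p = 0.046, within 0.046 to 0.42 across the alternatives). Mgst1 was at 8.01 ± 2.53 and 6.46 ± 1.84 TPM (SD, n = 3 each). Limma called 0 of the 2 tested genes, and 1 was higher at an unadjusted p below 0.05.

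Summed by role, the cytosolic transferases held 442, 436 and 429 TPM in wild-type and 615, 595 and 591 TPM in knockout libraries, a ratio of means of 1.38. Libraries of 1 group thus lay close together and the groups far apart; Gsto1, Gstm5 and Gstp1 carry most of these sums. Thioredoxins and their reductases held 946 to 1060 TPM in wild-type and 1187 to 1461 TPM in knockout libraries, most of it Txn1. The sums of glutathione synthesis genes and of microsomal transferases also did not overlap, at 239 to 254 against 261 to 297 TPM and at 510 to 649 against 673 to 725 TPM. For the other 5 classes the groups overlapped. These sums are descriptions, with no test, and a TPM sum is weighted to its most abundant gene.

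**Figure D2:**
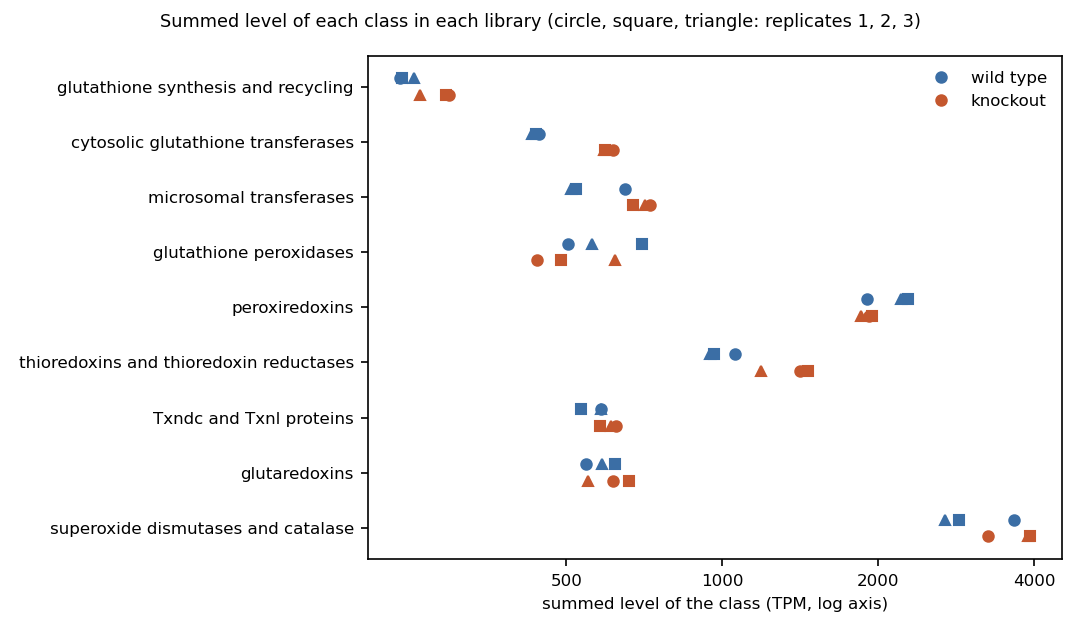
Summed TPM of each class (log axis) in each library, with wild-type libraries in blue and knockout libraries in orange. The cytosolic transferases sit at 429 to 442 TPM in wild-type and 591 to 615 TPM in knockout libraries, while peroxidases, peroxiredoxins, Txndc and Txnl proteins, glutaredoxins and the dismutase and catalase class overlap.

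Limma called 0 of the 6 tested glutathione peroxidases (unadjusted p below 0.05: 2 higher, 0 lower). Gpx1, the selenoenzyme of cytosol and mitochondria and the most abundant, was at 272, 454 and 362 TPM in wild-type and 234, 251 and 340 TPM in knockout libraries, with groups that overlapped (log2 difference -0.39, adjusted p = 0.283). Gpx4, which reduces phospholipid hydroperoxides and so protects membranes, was at 177 ± 28.3 and 165 ± 31.9 TPM (SD, n = 3 each; adjusted p = 0.738). Its longest transcript shares 61.7% of its 50-base words with other loci, mainly the pseudogene Gpx4-ps2.

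Among the rare peroxidases, Gpx2, best known from gut epithelium, was at 6.47, 0 and 4.15 TPM in wild-type and 14.3, 7.96 and 17.8 TPM in knockout libraries. The knockout values were all higher (log2 difference 2.02, SE 0.67, adjusted p = 0.109), and without wild-type replicate 2, where it is listed at 0, the difference was 1.14. It was called in 2 of 18 alternatives, with the satellite glia covariate (3.28, adjusted p = 0.03) and with replicate number as a block (2.02, adjusted p = 0.036), within 0.03 to 0.261 across them all. Gpx2 lies within Fntb on the opposite strand, and 18.9% of its 50-base words occur in a pseudogene. Gpx3, the secreted form, was at 28.0, 13.4 and 12.01 TPM in wild-type and 25.0, 36.0 and 30.9 TPM in knockout libraries. Wild-type replicate 1 overlapped the knockout range, and without it the difference went from 0.83 (adjusted p = 0.132) to 1.19 (0.0246, within 0.0246 to 0.398 across the alternatives). Gpx7 and Gpx8, of the endoplasmic reticulum, had overlapping groups; Gpx8 differed by 0.13, and Gpx7 was at 6.30, 0 and 2.42 TPM in wild-type and 5.53, 5.48 and 6.15 TPM in knockout libraries.

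The peroxiredoxins, among the most abundant transcripts described here, gave no call by limma among 6 tested genes (unadjusted p below 0.05: 1 higher, 2 lower). Prdx2, a cytosolic enzyme abundant in neurons and in red blood cells, was at 827, 1131 and 1065 TPM in wild-type and 1024, 1048 and 770 TPM in knockout libraries. The groups overlapped throughout (log2 difference -0.09, adjusted p = 0.778). Of the red blood cell markers that were matched, only Hba-a2 averaged 1 TPM or more. Hba-a2 differed widely between libraries, at 3.60, 8.79 and 19.1 TPM in wild-type and 39.9, 12.3 and 54.5 TPM in knockout libraries. Hbb-b1 was listed at 0 in every library. Alas2 was too low to be tested, with a lower knockout mean and overlapping groups. Prdx2 was lowest in the library with most Hba-a2. The part of red blood cells in these values was not tested.

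Prdx5, found in mitochondria, peroxisomes and cytosol, was at 655, 752 and 754 TPM in wild-type and 447, 492 and 663 TPM in knockout libraries. Knockout replicate 3 overlapped the wild-type range; the difference was -0.45 (adjusted p = 0.117), and -0.61 (0.0389, within 0.0389 to 0.375 across the alternatives) without that library. Prdx1, a cytosolic enzyme, was higher in every knockout library (178 ± 11.6 against 213 ± 7.55 TPM, SD, n = 3 each; log2 difference 0.26, adjusted p = 0.165). Prdx6, which also has phospholipase activity, was lower in every knockout library (48.4 ± 8.91 against 36.2 ± 3.38 TPM; -0.40, adjusted p = 0.181). Prdx3, the mitochondrial peroxiredoxin, was level at 144 ± 10.1 and 145 ± 6.35 TPM. Prdx4, of the secretory pathway, overlapped at 25.7 to 42.6 TPM.

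Txn1, the cytosolic thioredoxin, was the most abundant of the genes that changed. It was at 893, 815 and 765 TPM in wild-type and 1230, 1285 and 1045 TPM in knockout libraries (chromosome 4, 57943373 to 57956411). All knockout libraries were higher, and the log2 difference was 0.52 (SE 0.12, adjusted p = 0.0408), with 1.44 times the wild-type mean. The call ended without wild-type replicate 2 (adjusted p = 0.107), wild-type replicate 3 (0.12), knockout replicate 1 (0.138) or knockout replicate 2 (0.142), and with the satellite glia covariate the difference was 0.42 (0.204). Across 18 alternatives its adjusted p lay between 0.032 and 0.204.

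Its partners did not pass the test. Txnrd1, the cytosolic reductase that recharges thioredoxin, was at 58.3 ± 8.67 and 59.0 ± 11.5 TPM (SD, n = 3 each). The mitochondrial pair of Txn2 and Txnrd2 was at 82.8 ± 12.9 and 88.3 ± 18.8 TPM and at 9.77 ± 3.41 and 8.29 ± 3.45 TPM. Txnrd3, a reductase best known from testis, was at 8.91 to 11.4 TPM and 3.67 to 9.94 TPM, and Txnip, which binds and inhibits thioredoxin, was at 1.99, 1.65 and 11.3 TPM in wild-type and 6.69, 2.89 and 3.30 TPM in knockout libraries. Each of these pairs of groups overlapped.

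None of the 10 tested Txndc and Txnl genes, which encode proteins with thioredoxin-like folds, was called by limma (unadjusted p below 0.05: 1 higher, 1 lower). Txndc17, a cytosolic protein that takes electrons from the same reductase as thioredoxin, came nearest: it was at 147, 98.8 and 122.95 TPM in wild-type and 189, 186 and 170 TPM in knockout libraries. The groups did not overlap (log2 difference 0.58, SE 0.15, adjusted p = 0.0609), and the call was made without wild-type replicate 1 (0.71, adjusted p = 0.0302, within 0.0302 to 0.178 across the alternatives). Txnl4b, a relative of the spliceosome protein Txnl4a, lay lower in each knockout library, at 11.95, 19.0 and 13.4 TPM against 20.6, 23.4 and 22.2 TPM (-0.57, adjusted p = 0.125). Txndc12, of the endoplasmic reticulum, also had lower knockout values without overlap (-0.46, adjusted p = 0.227). The abundant Txnl1, which associates with the proteasome, was at 174 ± 5.96 and 173 ± 18.0 TPM, and Txnl4a was at 102 ± 17.5 and 98.1 ± 6.71 TPM. Txndc5, Txndc9, Txndc11, Txndc15 and Txndc16 had overlapping groups and log2 differences between -0.27 and 0.17.

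The 4 glutaredoxins, small thiol proteins that use glutathione, included 1 fall. Glrx5, which hands iron-sulfur clusters on in mitochondria, was at 125, 184 and 146 TPM in wild-type and 95.3, 97.9 and 97.6 TPM in knockout libraries. Knockout values were nearly equal and all lower (log2 difference -0.62, SE 0.15, adjusted p = 0.0455; chromosome 12, 105032688 to 105042906). Leaving out any library except wild-type replicate 1 ended the call: the adjusted p was 0.0974 and 0.106 without wild-type replicates 2 and 3, and 0.14, 0.128 and 0.087 without knockout replicates 1, 2 and 3. It was 0.0688 with median-of-ratios rescaling and lay between 0.0278 and 0.167 across the alternatives. Glrx5 starts 280.7 kb beyond the end of Dicer1 on the same chromosome, close to the altered locus; a part of that closeness in the result was not tested.

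Glrx2, the other mitochondrial glutaredoxin, was at 49.1, 54.7 and 51.9 TPM in wild-type and 40.1, 35.0 and 32.2 TPM in knockout libraries. These groups did not overlap either (log2 difference -0.53, SE 0.14, adjusted p = 0.0585), and it was called when only rows averaging 5 TPM or more were tested (0.0466, within 0.0466 to 0.25 across the alternatives). The cytosolic Glrx was at 168, 196 and 186 TPM in wild-type and 256, 306 and 180 TPM in knockout libraries. Knockout replicate 3 lay inside the wild-type range; the difference was 0.40 (adjusted p = 0.222), and 0.61 (0.0493, within 0.0493 to 0.732 across the alternatives) without that library. Glrx3, a cytosolic carrier of iron-sulfur clusters, was higher in each knockout library (197 ± 9.85 against 229 ± 9.82 TPM, SD, n = 3 each; log2 difference 0.22, adjusted p = 0.223).

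Sod2, the manganese enzyme that removes superoxide inside mitochondria, fell from 111, 123.4 and 104 TPM in wild-type to 69.3, 70.7 and 81.4 TPM in knockout libraries (chromosome 17, 13006846 to 13040063). The wild-type mean was 1.53 times the knockout mean, the groups were clearly apart, and the log2 difference was -0.60 (SE 0.12, adjusted p = 0.0291). The call ended without wild-type replicates 2 (0.0826) or 3 (0.0606) and without knockout replicates 1 (0.111) or 2 (0.0982), and across 18 alternatives its adjusted p lay between 0.0239 and 0.111. With the satellite glia covariate the difference was -0.64 (0.105).

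Sod1, the copper-zinc enzyme of the cytosol, was by far the most abundant of the 68 genes. It was at 3317, 2505 and 2290 TPM in wild-type and 2883, 3584 and 3527 TPM in knockout libraries. Wild-type replicate 1 and knockout replicate 1 crossed over, and the difference of 0.31 was not called (SE 0.16, adjusted p = 0.277). Catalase, the peroxisomal enzyme encoded by Cat, was at 243 ± 37.7 and 273 ± 12.4 TPM (SD, n = 3 each; adjusted p = 0.434), and Sod3, the extracellular dismutase, was at 5.09 to 8.83 and 8.62 to 11.5 TPM.

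**Figure D3:**
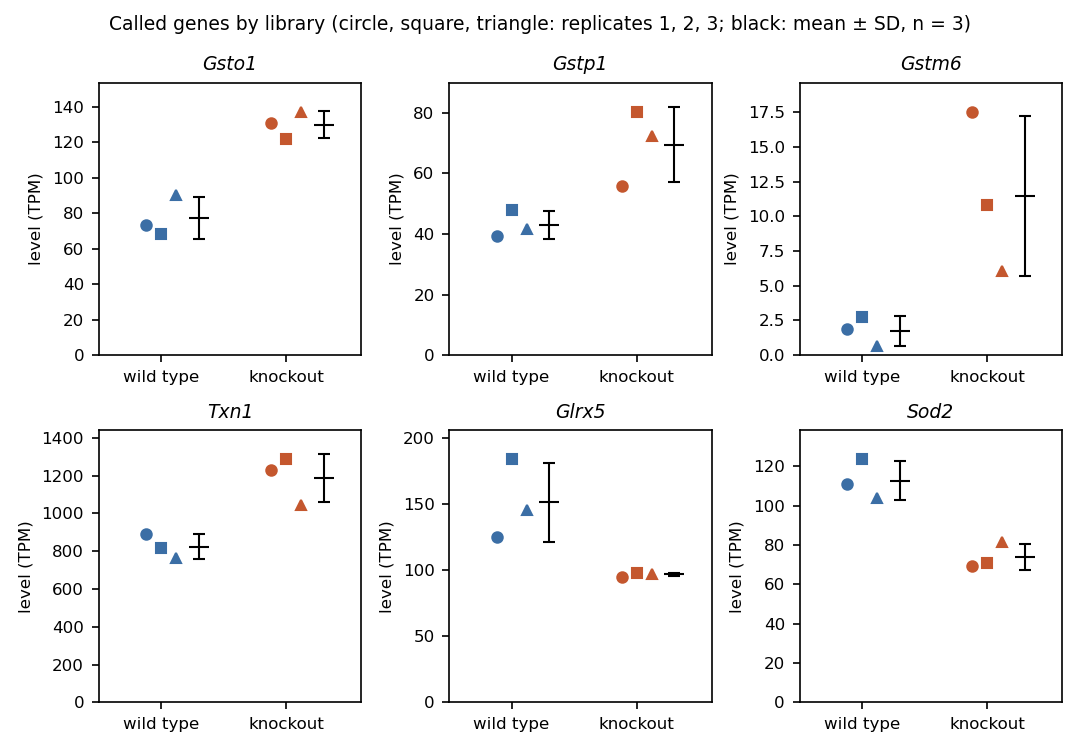
TPM of the 6 called genes in each library (linear axes from 0), with circles, squares and triangles for replicates 1, 2 and 3 and black bars for mean ± SD (n = 3 per group). For Gsto1, Gstp1, Gstm6 and Txn1 every knockout point lies above every wild-type point, and for Glrx5 and Sod2 every knockout point lies below.

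By compartment, as background knowledge places them, Sod2 and Glrx5 act in mitochondria. So do Glrx2, Txn2, Txnrd2 and Prdx3 and, in part, Prdx5, Gpx1 and Gstk1, whose log2 differences of -0.53, 0.08, -0.23, 0.01, -0.45, -0.39 and 0.12 were not called. This grouping was made after the values were seen and carries no test. It does not list every family gene with a part in mitochondria, so it does not show a direction for that compartment.

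Genes that supply or regulate these enzymes were taken as 5 lists with 95 genes in the table, of which 88 were tested. Limma called 3 higher and 2 lower, and the median log2 difference was 0.03. With an unadjusted limma p below 0.05, 12 were higher and 8 lower, against 9.77% and 14.1% of all rows. The share called, 5.68%, was close to the 5.03% of all rows tested, and groups did not overlap for 27.3% of these genes against 28.9% of all rows. Slc1a5, a transporter of glutamine and other neutral amino acids, was at 7.85, 11.8 and 10.7 TPM in wild-type and 25.8, 20.0 and 28.2 TPM in knockout libraries. Each knockout value was well above the wild-type range (log2 difference 1.21, SE 0.21, adjusted p = 0.0161), and the call ended without knockout replicate 1 (0.078, within 0.00895 to 0.0963 across the alternatives). Chac2, an enzyme that breaks glutathione down, rose from 33.0, 26.1 and 24.8 TPM to 53.8, 44.3 and 51.5 TPM (0.82, adjusted p = 0.0238). That call ended without wild-type replicates 2 (0.0639) or 3 (0.0774) or knockout replicates 1 (0.102) or 3 (0.0598), within 0.0179 to 0.146 across the alternatives. These were the 2 calls among 24 tested genes of cysteine and glutamate supply and glutathione turnover, a list in which Slc7a11, the cystine transporter, was at 8.10 ± 0.926 and 9.83 ± 0.787 TPM (adjusted p = 0.48). Glo1 and Gdap1, the most abundant of that list, had log2 differences of 0.19 and -0.09.

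Among 17 Nrf2 regulators and classical targets outside the families, 1 rose and 1 fell. With an unadjusted limma p below 0.05, 5 were higher and 3 lower, against 9.77% and 14.1% of all rows. Groups did not overlap for 8 of the 17 (47.1%), with 6 higher and 2 lower. Over all rows the share was 28.9%, with 11.8% higher and 17.1% lower. Nqo1, a quinone reductase widely used as a readout of Nrf2, was at 9.77, 6.05 and 7.97 TPM in wild-type and 15.1, 16.7 and 18.1 TPM in knockout libraries. The groups were apart (log2 difference 1.002, SE 0.21, adjusted p = 0.0338), but leaving out any library other than wild-type replicate 1 ended the call, with adjusted p of 0.0765 and 0.0837 without wild-type replicates 2 and 3 and of 0.0998, 0.106 and 0.0869 without knockout replicates 1, 2 and 3, within 0.0219 to 0.166 across the alternatives. Fth1, the ferritin heavy chain that stores iron, fell from 3435, 4315 and 4083 TPM to 2636, 2585 and 2858 TPM (-0.55, adjusted p = 0.0409). For Fth1, too, only leaving out wild-type replicate 1 kept the call; without wild-type replicates 2 and 3 the adjusted p was 0.135 and 0.112, and without knockout replicates 1, 2 and 3 it was 0.135, 0.14 and 0.0689, within 0.0253 to 0.167 across the alternatives. Ftl1, the light chain, was at 495 ± 94.4 and 571 ± 15.2 TPM. Nfe2l2, which encodes Nrf2 itself, was at 57.7, 60.5 and 48.2 TPM in wild-type and 73.5, 72.8 and 71.9 TPM in knockout libraries, higher in each but not called (0.39, adjusted p = 0.106), and its inhibitor Keap1 was at 17.1 ± 0.52 and 17.8 ± 2.501 TPM. Srxn1, which repairs overoxidized peroxiredoxins and is another classical target, was at 246 ± 27.1 and 228 ± 12.4 TPM with overlapping groups (-0.11, adjusted p = 0.609). Esd, Blvrb, Nqo2 and Cbr1 were higher in every knockout library and not called, with differences of 0.60, 0.63, 0.31 and 0.26 and adjusted p of 0.0888, 0.0735, 0.188 and 0.217. Hmox2 was lower in every knockout library and not called (-0.44, adjusted p = 0.105). Hmox1, the inducible heme oxygenase, was at 8.26, 16.1 and 6.00 TPM in wild-type and 3.66, 2.79 and 6.26 TPM in knockout libraries (adjusted p = 0.14).

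Of 16 tested genes listed for NADPH supply, Me2, the mitochondrial malic enzyme, fell from 86.5, 83.2 and 100.3 TPM to 56.4, 45.7 and 52.2 TPM (log2 difference -0.80, SE 0.13, adjusted p = 0.0145). The call ended without wild-type replicate 3 (0.0566) or knockout replicate 2 (0.0533), within 0.0117 to 0.0968 across the alternatives. Me2 mainly makes NADH rather than NADPH. G6pdx, the first enzyme of the pentose phosphate pathway, was at 56.4 ± 4.46 and 62.0 ± 5.90 TPM (SD, n = 3 each), and Idh1 and Me1, the most abundant of the list, had log2 differences of 0.00 and -0.10. None of 15 tested genes of selenoprotein synthesis and selenoproteins (0 at an unadjusted p below 0.05) and none of 16 methionine sulfoxide reductases, sestrins, copper chaperones and related genes (1 lower at an unadjusted p below 0.05) was called by limma. The most abundant of these were Sepw1, at 733 ± 60.9 and 694 ± 102 TPM, and Oxr1, at 406 ± 65.6 and 279 ± 11.6 TPM (-0.53, adjusted p = 0.0526).

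**Figure D4:**
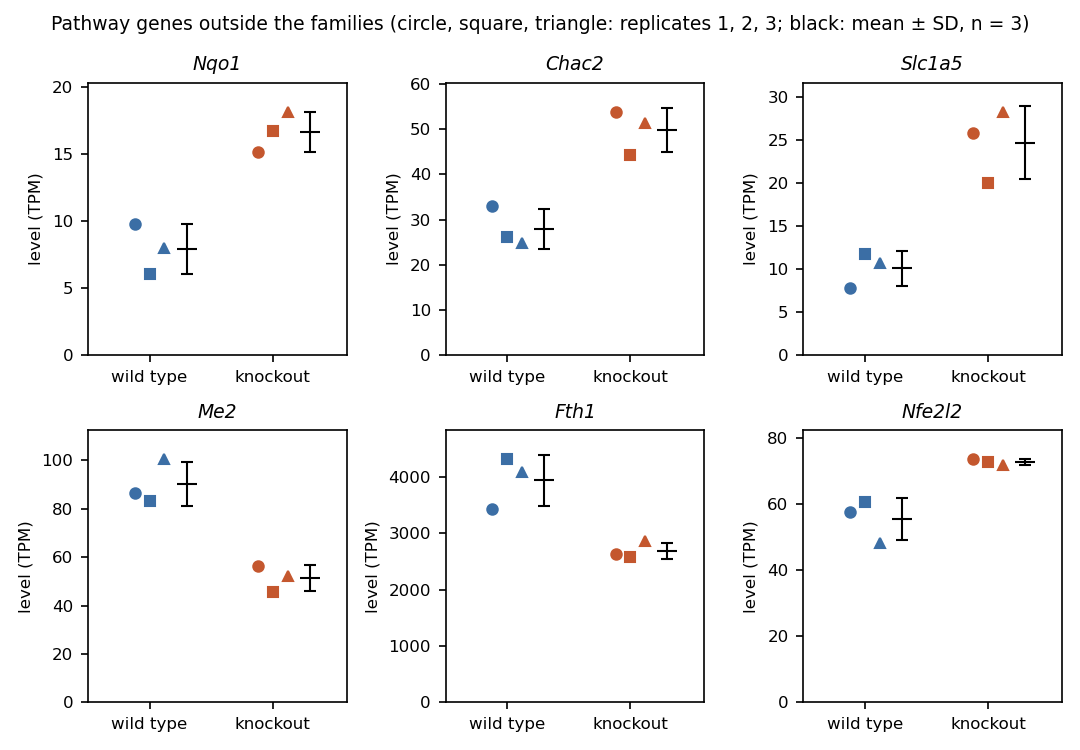
TPM in each library (linear axes from 0) of the 5 called pathway genes and of Nfe2l2, which was not called, with symbols for replicates and black bars for mean ± SD (n = 3 per group). Nqo1, Chac2 and Slc1a5 are higher in every knockout library, Me2 and Fth1 are lower in every knockout library, and the 3 knockout values of Nfe2l2 fall between 71.9 and 73.5 TPM.

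Promoters were searched for the core of the antioxidant response element, the DNA site of Nrf2, written TGACNNNGC, on both strands of the 300 bases from 250 before to 50 after each RefSeq start site (GRCm38.p6). A match was found in 11 of 82 promoters of the 60 family genes that have an entry (13.4%), against 12.4% of all 32851 promoters. None of the 8 promoters of the 6 called genes held it, which says only that these letters are not in this window. The 30 bases around the match are shown for 4 of these 11 genes, chosen as examples after their values were seen, on the gene's strand, with the match in capitals, which is the reverse complement of the motif where it lies on the other strand. In Gstm5 the match is on the gene's strand, and in the other 3 on the opposite one.
Gclm: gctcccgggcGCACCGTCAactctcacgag
Gstm5: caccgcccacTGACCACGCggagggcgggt
Prdx1: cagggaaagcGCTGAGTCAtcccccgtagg
Txnrd1: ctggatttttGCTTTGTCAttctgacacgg
They lie at chr3:122245413-122245442, chr3:107895802-107895831, chr4:116685456-116685485 and chr10:82859104-82859133, in that order. The Prdx1 match overlaps the AP-1 type motif TGANTCA, and the other 3 do not. Of the 11 genes with a match, 9 were tested and none was called. Their log2 differences were 0.44 for Gclm, 0.40 for Gstm5, 0.26 for Prdx1, 0.01 for Txnrd1, 0.42 for Gstm7, 0.31 for Sod1, 0.17 for Txndc11, -0.14 for Txndc5 and -0.26 for Mgst1. Groups did not overlap for Gclm, Gstm5 and Prdx1 and overlapped for the other 6, where 28.9% of all rows had groups that did not overlap. Gsta3 and Txndc2 were too low to be tested.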

How the data were processed

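Per the labels' protocols, PicoPure-extracted RNA was amplified as cDNA (Ovation) and sonicated, which can add noise for rare transcripts. The submitters' processing notes name cutadapt, Bowtie2, RSEM 1.2.7 and mm10, and name no annotation. The authors deposited TPM values, 1 column per library. TPM keeps no depth, so counting intervals were not given. RSEM divides reads between similar transcripts by a model.

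Values were transformed as log2(TPM + 1), rows averaging under 1 TPM were left out, and genotype alone was fitted with limma 3.58.1 (R 4.3.3) and an intensity trend. It was two-sided, with a threshold of 0.05 on p-values adjusted over 13787 rows. Permuting 3 against 3 libraries exactly cannot reach the threshold and was not done. On simulated normal values for 13787 rows, 200 of them changed, the fit recovered 15.7% of 1.5-fold, 49.3% of 2-fold and 87.3% of 4-fold changes. Of its calls, 7.84% were false, above the threshold of 0.05. The real libraries gave 693 calls, so these rates may not hold for them. Family genes were named when called, when among the 2 highest of a class, or when groups did not overlap and differed by at least 0.5; pathway genes when called, with at most the 2 highest of a list. Others named were chosen after their values were seen. The genes and lists were chosen with earlier results of these data known, and the alternatives for pathway genes were added after seeing the data. Of the list names, Whrn, Nadk2, Sep15, Sels, Selt, Selo, Hba-a1, Hbb-bs, Hbb-bt and Hbb-b2 were not matched. Positions came from GENCODE M21 (GRCm38), the assembly that mm10 names. Shared sequence was counted as 50-base words of the longest coding transcript found in transcripts of other genes. Figures and tables used Python 3.11.15.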

Additional observations from a re-analysis of the deposited data

How the results depend on the processing

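All 6 called genes kept their direction under all 18 alternatives, and none stayed called under all of them. Depth is unknown, and leaving out a library means fewer samples. Over all rows, the counts of rises and falls were 256 and 437. They became 130 and 248 without a filter on low values, 57 and 168 without the intensity trend, 77 and 104 with the satellite glia covariate, and 65 and 139 in replicates 1 and 2 alone. Quantile normalization gave 389 rises. Leaving out single libraries gave 48 to 348 rises and 116 to 487 falls. Of the 56 genes, 4 rose and 2 fell. The counts were 1 and 1 without the filter, 0 and 0 without the trend (11 and 5 unadjusted), 2 and 0 with the glia covariate (9 and 6 unadjusted) and 1 and 0 in replicates 1 and 2 (11 and 5 unadjusted). A pseudocount of 0.1 and median-of-ratios rescaling each left 1 fall. Single libraries left out gave 0 to 6 rises and 0 to 2 falls. Of the pathway genes, 3 rose and 2 fell. The counts were 1 and 0 without the trend, 1 and 0 with the glia covariate and 0 and 0 in replicates 1 and 2. With the glia covariate none of the pathway genes called in the main fit stayed called, so the 1 rise there was another gene. There was 1 fall without the filter or with rescaling, and single libraries left out gave 0 to 3 rises and 0 to 3 falls. The causes of these changes were not tested.

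Deviations of same-numbered libraries correlated at 0.049, 0.066 and 0.038 across 13787 rows, and those of other pairs at -0.098 to 0.07. Such low values over all rows cannot show whether the samples were paired. Replicate 3 had another sex than replicates 1 and 2 in both groups. The best match was its own number for 2 of 3 wild-type libraries. With a replicate block, 4 of the 56 genes rose and 0 fell (13 and 8 unadjusted). Of the pathway genes, 1 fell (Me2), Slc1a5 and Chac2 stayed called as rises, and Nqo1 and Fth1 were no longer called. Txn1 (adjusted p = 0.0624), Sod2 (0.0623) and Glrx5 (0.0575) were not called with the block, and Gpx2 was (2.02, 0.036).

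Among the genes named by rule, the 4 whose differences changed sign were uncalled; other uncalled genes also changed sign and are not listed. Prdx2 was at 0.10 in replicates 1 and 2. Txn2 was at -0.009 with the glia covariate. Txnl1 was at 0.0606 with rescaling, 0.0546 with quantile normalization, 0.0021 with library weights and 0.10 with the glia covariate. With single libraries left out, Gpx4 ranged from -0.24 to 0.0414, Prdx2 from -0.2254 to 0.0533, Txn2 from -0.0722 to 0.2321 and Txnl1 from -0.0696 to 0.0727.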
